A study of Mus musculus with 2 samples.

Results

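The barcodes described here are 249 of the 28245 cell barcodes in the table (0.882%, exact Clopper-Pearson 95% interval 0.776% to 0.998%), chosen by a gate on transcripts of the replication and proliferation genes Mki67, Top2a, Uhrf1, Mcm2, Mcm5 and Tyms. The gate asked for at least 8 unique molecular identifiers (UMIs, single captured transcripts) summed over these 6 genes, under 3 UMIs of Stra8, under 100 UMIs of Ldhc, and under 5 UMIs summed over Gfra1, Ret, Etv5, Zbtb16, Sall4, Foxo1, Pou3f1 and Lin28a. The working name of the gate was cycling spermatogonia. Summed over 150 of these barcodes, spermatogonial genes such as Kit, Dmrt1 and Ccnd1 each stood above 100 CPM, although not every barcode held them. The data go against the name for the other 99, which carried transcripts of meiotic prophase and next to none of those 3 genes.

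The cells came from adult testes of mice of the strain labelled C57BL/CJ;ICR, either wild type or miR-202-/-, with 1 droplet 3′ library of total testicular cells for each genotype. For the miR-202-/- animals the labels name no driver or cell type, and for neither library do they say how many animals were pooled. Barcodes carry a suffix, 1 or 2 (the mark), that could not be tied to a genotype from the sources used here. Values are therefore given pooled and under each mark, and no genotype comparison was made. The marks are not replicates, cells of 1 library are not replicates either, and nothing below was tested. Differences were described by size: a gene was called higher or lower where mark 1 and mark 2 each showed a ratio of 1.5 or more that way, and where the class with more of it held 50 or more UMIs and 50 or more CPM (a gene's UMIs scaled to 1000000 UMIs of the class). All intervals are exact 95% intervals and cover counting error only.

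Spermatogonia are the mitotic germ cells at the edge of the seminiferous tubule. Undifferentiated spermatogonia respond to GDNF through the receptors encoded by Gfra1 and Ret. Under retinoic acid they become differentiating spermatogonia, which carry the receptor tyrosine kinase KIT, divide several times in step, replicate their DNA a last time with STRA8 present, and enter meiotic prophase. In that prophase the chromosomes pair on axes built with SYCP3 and HORMAD1, recombination is carried out by proteins such as DMC1 and MEIOB, and in males most genes of the X chromosome are silenced.

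Each step of the gate removed other germ cells. The sum over the 6 genes alone was met by 1235 barcodes, the limit on Stra8 left 1115, the limit on Ldhc left 291 and the limit on the undifferentiated genes left 249. Under mark 1 there were 138 of 12935 barcodes (1.067%, 0.897% to 1.259%) and under mark 2 there were 111 of 15310 (0.725%, 0.597% to 0.873%). UMIs per barcode ran from 5074 to 37851 with a median of 11240, against a median of 5739 over all barcodes. The gate uses raw UMIs, so deeper barcodes reach 8 more easily and 100 Ldhc UMIs sooner. With every barcode thinned to at most 10000 UMIs the gate held 254 barcodes, of which 206 were the same. Of the barcode sequences, 73 occur under both marks in the whole table and 3 do so among the 249.

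Spermatid transcripts were present in every barcode. The 8 spermatid markers, Prm1, Prm2, Tnp1, Tnp2, Acr, Smcp, Akap4 and Tssk6, had a median of 225 UMIs per barcode here and 287 over all barcodes. They summed to 27044 CPM, and 24 of the 249 barcodes held 500 or more such UMIs. Ldhc, a lactate dehydrogenase of spermatocytes and spermatids, stood at 2528 CPM in the 150 barcodes and at 5487 CPM in 384 barcodes gated on Sertoli cell markers, so part of what the limit of 100 on Ldhc reads is present in cells other than germ cells. The Sertoli barcodes (median 5704 UMIs) serve below as the class that should lack germ cell transcripts. They held 20 or more Sertoli marker UMIs and under 8 UMIs of the 6 gate genes. Barcodes rich in the gate genes were thus kept out of this class by rule. They are not free of germ cell RNA: 114 of the 384 held 500 or more spermatid marker UMIs, their spermatid markers summed to 74527 CPM, and 32 held 10 or more UMIs of the 7 germ cell markers. They also held Leydig cell markers at 1557 CPM.

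A score of 9 leptotene and zygotene markers (Sycp1, Sycp3, Hormad1, Dmc1, Meiob, Prdm9, Tex101, Meioc and Gm960) split the members. Expressed as UMIs per 10000 UMIs of the barcode, it ran from 1.12 to 108.3 and fell into a low and a high group, with 10 barcodes between 30 and 45. A limit of 35, chosen after the values were seen, gave 150 prophase-low barcodes with a median of 12.2 and 99 prophase-high barcodes with a median of 65.6. The prophase-high share was 39.8% (33.6% to 46.1%) pooled, 37.7% (52 of 138) under mark 1 and 42.3% (47 of 111) under mark 2. As it is a limit on a score, it marks ranges and not types: 6 barcodes lay between 30 and 40. The medians of UMIs per barcode were 11244 and 11225 with the marks pooled. Within the prophase-high group they were 9064 under mark 1 and 14857 under mark 2. Levels summed over a group weigh deeper barcodes more. The prophase-high group is also mixed: its level of 12 differentiating spermatogonium markers ran from 0.611 to 32.4 UMIs per 10000.

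**Figure D1:**
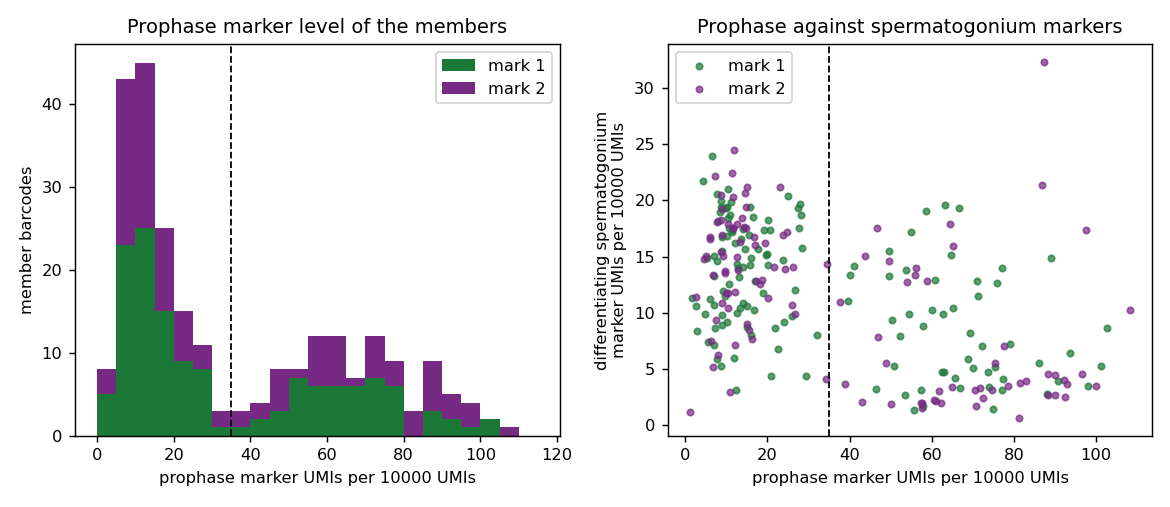
Prophase marker level of the 249 barcodes. Left, number of barcodes (stacked by mark) by UMIs of 9 leptotene and zygotene markers per 10000 UMIs, with the limit at 35 as a dashed line; right, each barcode's level of 12 differentiating spermatogonium markers against the same axis. The 150 barcodes left of the line have a median of 14.6 spermatogonium marker UMIs per 10000 and the 99 to the right a median of 5.24. The groups overlap: levels reach 24.5 on the left and 32.4 on the right, and several barcodes on the right lie above 15. Of 8 measured markers 5 were lower on the right and 1, Prss50, was higher, so Prss50 adds to the levels there. Dmrtb1, also among the 12, is not read as expression.

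The 6 gate genes entered these groups in different proportions, which is a description because they chose the barcodes. In the prophase-low group Top2a, the DNA topoisomerase of replicating and condensing chromosomes, made 38.1% of the gate sum and Mki67, the proliferation antigen, 34.3%. In the prophase-high group Top2a made 69.5% and Mki67 15.9%. Mcm2, a subunit of the replicative helicase, stood at 119.0 CPM (124 under mark 1 and 112 under mark 2) in the first and at 3.83 CPM (4.87 and 2.90) in the second. Tyms, thymidylate synthase, stood at 64.7 and 3.83 CPM. Uhrf1, which guides DNA methylation to replicated DNA, stood at 114.1 and 72.8 CPM and Mcm5, another helicase subunit, at 98.4 and 56.7 CPM. Without Top2a, 90 of the 150 prophase-low barcodes and 7 of the 99 prophase-high ones would still have reached 8.

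The prophase-high share of barcodes next to a limit differed between the limits. Of the 22 barcodes with a sum of exactly 8, 16 were prophase-high, and of the 50 just outside with a sum of 7, 30 were. The 7 barcodes with 90 to 99 Ldhc UMIs were all prophase-high, as were 11 of the 12 barcodes next to them outside the limit of 100. On the undifferentiated genes, 1 of 14 barcodes at 4 UMIs and 0 of 14 at 5 UMIs was prophase-high. On Stra8, 3 of 11 barcodes at 2 UMIs and 6 of 10 at 3 UMIs were.

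**Figure D2:**
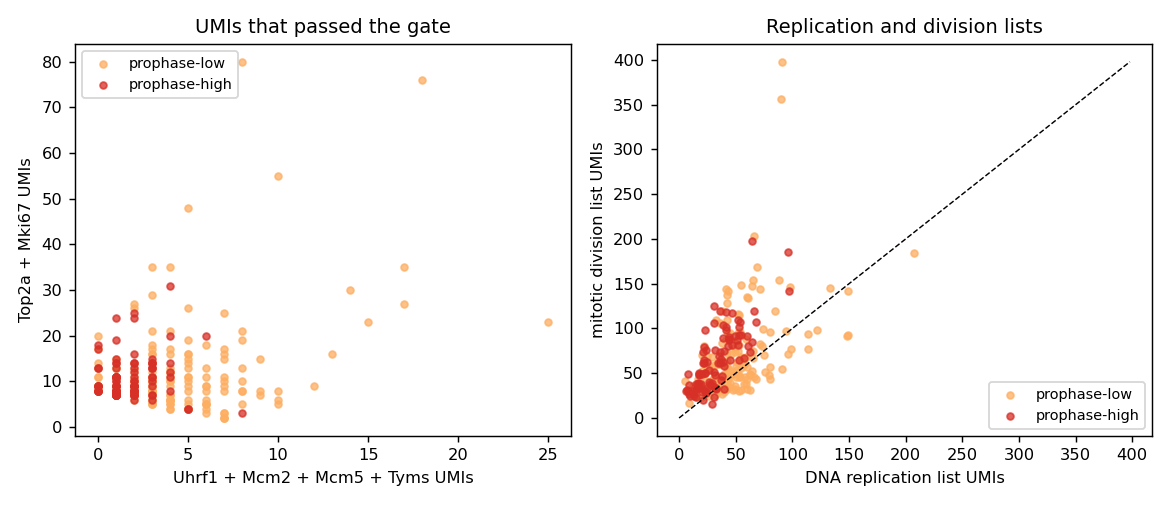
What passed the gate. Left, UMIs of Top2a plus Mki67 against UMIs of the other 4 gate genes in each of the 249 barcodes; right, UMIs of 38 mitotic division genes against UMIs of 40 DNA replication genes outside the gate, with the line of equal numbers dashed. Without Top2a and Mki67, 23 prophase-low barcodes and 1 prophase-high barcode would have reached 8. Of the 99 prophase-high barcodes 94 had at least as many division as replication UMIs.

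The genes that the gate excludes were near zero in both groups by construction. Gfra1 had 1 UMI in the 150 prophase-low barcodes and 0 in the 99 prophase-high ones, and Ret had 0 in both (exact upper bounds 2.005 and 2.83 CPM). Etv5 and Lin28a had 0 and 2 UMIs in the prophase-low group. Zbtb16, which encodes PLZF, stood at 13.6 CPM there, Sall4 at 14.7, Pou3f1 at 33.7 and Foxo1 at 41.3, against 126, 83.7, 114 and 126 CPM in 78 barcodes gated on 5 or more UMIs of these 8 genes (called the undifferentiated gate below). Stra8 stood at 23.4 CPM in the prophase-low and 9.96 CPM in the prophase-high group. It stood at 817.2 CPM in 177 barcodes with 3 or more Stra8 UMIs (the Stra8 gate). The undifferentiated gate also asked for under 3 Stra8 UMIs and under 100 Ldhc UMIs. The Stra8 gate also asked for under 100 Ldhc UMIs and under 5 UMIs of the 8 undifferentiated genes. Each comparison class was thus cleared of the other's genes by rule.

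The summed level of differentiation markers separated the groups within the gate, but much less the prophase-low group from its neighbours. The 12 differentiating spermatogonium markers summed to 1458 CPM in the prophase-low group and 609 CPM in the prophase-high group. They summed to 1647 CPM in the undifferentiated gate and 1651 CPM in the Stra8 gate. Single markers went both ways: of 10 measured against the undifferentiated gate 4 were higher and 2 lower in the prophase-low group. Over all genes 4.24% were higher and 4.57% lower. Against the Stra8 gate 0 of 8 were higher and 1 was lower. Part of the 609 CPM is Prss50, which was called higher in the prophase-high group. Kit (chromosome 5, 75574916 to 75656722, plus strand, GRCm38), the receptor for stem cell factor, stood in the prophase-low group at 109.4 CPM under mark 1 and 96.0 CPM under mark 2, and in the prophase-high group at 1.62 and 1.45 CPM. It was therefore high under both marks in the first and near zero under both in the second, 67.7-fold lower (18.5 to 563). A Kit UMI was found in 60.7% of the 150 barcodes, in 2.02% of the 99 and in 4.95% of the Sertoli barcodes. The prophase-high share is thus no higher than background. After thinning to 5000 UMIs per barcode the first 2 shares were 32.7% and 2.02%.

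Of 4885 genes measured in this comparison (at least 50 UMIs and 50 CPM in at least 1 group, gate genes and prophase markers left out), 875 were called higher in the prophase-high group (17.9%) and 834 lower (17.1%). With the median log2 ratio of well-counted genes set to 0 the split was 732 and 967. Of 14 measured genes on the differentiation list, 10 were lower and 1 was higher, with a median log2 ratio of -2.98 against 0.01 over all genes measured. The lower ones were Kit, Dmrt1, Sohlh1, Rhox13, Elavl2, Crabp1, Uchl1, Esx1, Epcam and Cited1.

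Dmrt1, a transcription factor that holds germ cells back from meiosis, stood at 155 and 147 CPM under the marks in the prophase-low group and at 0 and 2.90 CPM in the prophase-high group, 98.9-fold lower (27.1 to 821). Crabp1, a retinoic acid binding protein, stood at 191 and 217 CPM against 3.25 and 1.45 CPM. Sohlh1, a helix-loop-helix factor of differentiating spermatogonia, was 16.2-fold lower (6.73 to 50.7), at 3.83 against 62.0 CPM. These genes separate the groups under each mark, with no overlap between the mark values. The X-linked homeobox genes Rhox13 and Esx1 were 5.03-fold and 13.3-fold lower. Cited1, a transcriptional co-regulator, is less clear, since its 157.6 CPM in the prophase-low group lies under its 183.1 CPM in the Sertoli barcodes.

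Prss50, a serine protease gene of the testis, was the 1 member of the list called higher. It stood at 133 and 96.0 CPM in the prophase-low group and at 253 and 148 CPM in the prophase-high group. That call of 1.69-fold ended in 7 of 15 alternatives, among them leaving out barcodes of 500 or more spermatid marker UMIs, a prophase limit of 50 and setting the median ratio to 0.

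Of 30 measured genes on the DNA replication list, all outside the gate, 15 were lower in the prophase-high group and 1 was higher (median log2 ratio -0.89). Mcm6, a helicase subunit, stood at 133 and 122 CPM in the prophase-low group and at 43.8 and 31.9 CPM in the prophase-high group, 3.42-fold lower (2.50 to 4.75). Mcm4 was 4.82-fold lower, Rrm2, a subunit of ribonucleotide reductase, 4.37-fold, Pold1, a DNA polymerase subunit, 4.47-fold, and Ung, a uracil glycosylase, 6.33-fold. Dtl, which directs destruction of licensing factors, was higher, at 168.6 against 91.3 CPM (1.85-fold, 1.504 to 2.27).

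Of 36 measured genes on the mitotic division list 12 were lower in the prophase-high group, 2 were higher and the rest were called neither way (median log2 ratio -0.61). Cenpa, the histone of centromeres, stood at 260 and 252 CPM in the prophase-low group and at 3.25 and 7.26 CPM in the prophase-high group, 47.8-fold lower (23.0 to 120). Ccna2, the cyclin of S phase and G2, stood at 124.5 against 5.37 CPM, and Aurkb, a kinase of chromosome segregation, at 73.9 against 5.37 CPM. Ube2c, a conjugating enzyme of the anaphase-promoting complex, was 4.07-fold lower. Smc4, a condensin subunit, was 2.29-fold higher (2.12 to 2.47), at 1341 against 585.9 CPM, and Cdc20, an activator of the anaphase-promoting complex, was 1.78-fold higher (1.53 to 2.07). Pooled over the marks, Cenpa, Ccna2 and Aurkb each stood at 5.37 CPM in the prophase-high group.

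Promoter sequences of both lists were searched because each list held several genes that were lower in the prophase-high group. RefSeq promoters (build GRCm38.p6, 250 bases before to 50 after each start, 27025 genes) were scanned on both strands. An E2F motif (TTTGGCGC, TTTCGCGC or TTCCCGCC) was present in at least 1 promoter of 15 of 32 replication genes with an entry (46.9%), of 2 of 31 division genes (6.45%) and of 3.39% of all genes. A cell cycle homology motif (TTTGAA or TTCGAA) was present for 24 of the 31 division genes (77.4%), for 5 of the 32 replication genes (15.6%) and for 21.7% of all genes. The motif CCAAT was present for 74.2% of the division genes and 41.1% of all genes. A match is a description of letters, not a site in use. Stretches upstream of the start are shown for a helicase subunit and a ribonucleotide reductase subunit of the replication list and for a motor protein and Ube2c of the division list, since each gene was lower in the prophase-high group. Capitals mark the motif, which for the last pair reads as the reverse complement of TTTGAA.
Mcm6, chr1:128359783-128359840, minus strand: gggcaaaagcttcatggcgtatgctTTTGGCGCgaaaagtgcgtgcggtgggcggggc
Rrm1, chr7:102441603-102441660, plus strand: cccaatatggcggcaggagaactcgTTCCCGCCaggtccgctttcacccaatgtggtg
Kif11, chr19:37376338-37376381, plus strand: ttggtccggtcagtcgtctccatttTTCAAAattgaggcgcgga
Ube2c, chr2:164769875-164769928, plus strand: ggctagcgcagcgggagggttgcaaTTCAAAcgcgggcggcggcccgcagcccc

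Among G1 regulators Ccnd1 had the largest ratio. This D-type cyclin (chromosome 7, 144929931 to 144939925, minus strand), which drives cells out of G1, stood at 215 and 226 CPM in the prophase-low group and at 1.62 and 1.45 CPM in the prophase-high group, 143-fold lower (39.4 to 1187). A Ccnd1 UMI was present in 82.7% and 2.02% of barcodes, and in 2.08% of the Sertoli barcodes. Of 9 measured genes on this list 3 were lower in the prophase-high group (Ccnd1, Cdc25a and Cdkn2a) and 2 were higher. Cdkn2a, which encodes a CDK inhibitor and an activator of p53, stood at 191.3 against 9.20 CPM, while the CDK inhibitors Cdkn2c and Cdkn2d were 1.68-fold and 1.96-fold higher. Ccnd2, a D-type cyclin of early spermatogonia, was at 2.17 and 3.83 CPM, from 1 and 2 barcodes.

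**Figure D3:**
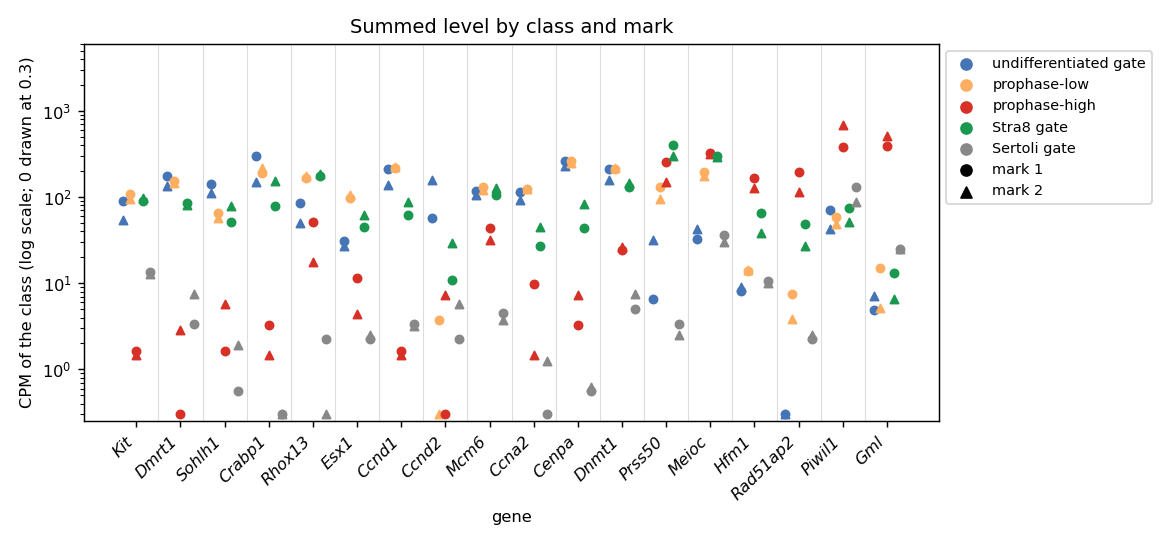
Levels of 18 genes, as CPM of summed UMIs on a log axis, in 5 classes (colours), with mark 1 as circles and mark 2 as triangles and values of 0 drawn at 0.3. Kit, Dmrt1, Crabp1, Ccnd1, Ccna2 and Cenpa lie under 12 CPM in the prophase-high group and above 90 CPM in the prophase-low group under both marks, while Rad51ap2, Hfm1, Piwil1 and Gml have the opposite order.

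Of 6 measured DNA methylation genes 5 were lower in the prophase-high group (Dnmt1, Dnmt3a, Tet3, Cdca7 and Hells, median log2 ratio -3.02) and none was higher. Dnmt1, the maintenance methyltransferase, stood at 210 and 218 CPM against 24.4 and 26.1 CPM, 8.44-fold lower (5.91 to 12.4). Cdca7, the partner of the remodeller HELLS, was 31.2-fold lower and Tet3, an oxidase of methylcytosine, 21.5-fold lower. Dnmt3b, a de novo methyltransferase, was at 45.7 against 3.83 CPM, under the level needed for a call. Of 29 chromatin genes 10 were lower and 4 higher, with a median log2 ratio of 0.10. The lower ones included Hmgb3 (206.5 against 5.37 CPM) and Hmgn2 (613 against 60.6 CPM), which encode nucleosome-binding proteins. The higher ones were Rnf2, Scmh1 and the histone variants H2afz and H2afx (1.97-fold and 3.56-fold).

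On the list of nucleotide and one-carbon metabolism 9 of 14 measured genes were lower in the prophase-high group and 1 was higher (median log2 ratio -1.58). Psat1, of serine synthesis, was at 56.0 against 1.53 CPM, Ppat, of purine synthesis, was 5.67-fold lower and Dctpp1, which clears modified cytidine nucleotides, 5.12-fold lower. Odc1, of polyamine synthesis, was 2.14-fold higher. In glycolysis 3 of 9 measured genes were lower, led by Gapdh (490.7 against 52.9 CPM), and 2 were higher, Ldha and the glucose transporter gene Slc2a3 (2.49-fold). UMIs of 84 ribosomal protein genes made 11.9% of UMIs in the prophase-low group, 8.68% in the prophase-high group and 15.02% in the undifferentiated gate. The mitochondrial share was 4.33%, 4.23% and 4.82%.

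Repair genes went both ways. Of 15 measured, 6 were lower in the prophase-high group, among them Chek1 (58.7 against 7.67 CPM) and Atm (99.5 against 18.4 CPM), kinases of the damage response. The 4 called higher included Atr, the kinase that acts on unpaired chromosome axes, at 400.1 against 112.5 CPM (3.56-fold, 3.02 to 4.198), and Rad18, a ubiquitin ligase, at 1.61-fold. On the apoptosis list Bax was 4.37-fold lower and Cycs, the somatic cytochrome c, 2.67-fold lower, while Cyct, the testis cytochrome c, was 4.75-fold higher at 428.5 against 90.2 CPM. In all 3 of 8 measured apoptosis genes were higher and 3 lower.

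Meiotic genes outside the score were higher in the prophase-high group, a direction that partly follows from the choice of the score. Of 14 measured genes on the meiotic entry list 9 were higher and 0 lower (Sycp2, Syce3, Tex12, Hormad2, Spo11, Ankrd31, Hfm1, Terb1 and Rad51ap2). Hfm1, a helicase of crossover formation, stood at 14.03 and 14.3 CPM in the prophase-low group and at 167 and 128 CPM in the prophase-high group, 10.4-fold higher (6.86 to 16.3). Rad51ap2, a gene of meiotic cells, was 25.8-fold higher (14.1 to 52.5). The markers of the score itself stood at 1850 against 221.7 CPM for Sycp3, at 151.8 against 4.35 CPM for Meiob and at 584.8 against 58.2 CPM for Hormad1. Meioc, which keeps germ cells in the meiotic programme, differed least among those with over 100 CPM, at 320.4 against 189.1 CPM.

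Some genes of later spermatocytes were also higher. Piwil1, the PIWI protein gene of pachytene cells, stood at 58.9 and 49.3 CPM in the prophase-low group and at 381 and 687 CPM in the prophase-high group, 9.89-fold higher (8.02 to 12.3), against 111.2 CPM in the Sertoli barcodes. Of 15 measured genes on this list 6 were higher and 0 lower. Piwil1 UMIs were found in 66.7% of the prophase-high barcodes. Of 15 measured germline identity genes 7 were higher (Ddx4, Mael, Stk31, Mov10l1, Tdrd9, Tdrd5 and Piwil2) and 4 were lower (Tex11, Taf7l, Usp26 and Nxf2), of which all 4 lie on the X chromosome. Dazl, an RNA-binding protein gene of germ cells, stood at 828.2 and 1096 CPM and was called neither way. Ddx4 stood at 316.8 and 659.2 CPM.

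The X chromosome was lower as a whole in the prophase-high group. UMIs of 693 X-linked genes made 1.73% of UMIs in the prophase-low group (1.72% under mark 1 and 1.75% under mark 2) and 0.746% in the prophase-high group (0.932% and 0.580%), against 1.62% in the undifferentiated gate and 1.81% in the Stra8 gate. The prophase-high values lay under all others under both marks. Of 94 measured X-linked genes 64 were lower and 2 higher, with a median log2 ratio of -1.69. The 2 called higher were Ndufa1, of respiratory complex I, and Pet2.

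The genes of largest ratio in the prophase-high group were Gml, Lypd11, Elfn2, Gml2, Rad51ap2, Ccdc152, Tgif1 and Tcp11l2. Gml (chromosome 15, 74813452 to 74818815, minus strand) stood at 14.97 and 5.19 CPM in the prophase-low group and at 388 and 517 CPM in the prophase-high group, 42.0-fold higher (26.9 to 69.2). Gml2 lies beside it at 74819071 to 74834871, and the genes are near-identical copies, so the split of UMIs between them is uncertain. Elfn2 was 29.6-fold higher and Lypd11, of the same LY6 family as Gml, 35.02-fold higher. On the lower side the largest ratios were those of Ccnd1, Csnk1e, Dmrt1, Hist1h2ap, Crabp1, Kit, Gsr and Gcat. Hist1h2ap, a replication-dependent histone H2A gene, stood at 310 and 231 CPM against 3.25 and 2.90 CPM, although histone transcripts without poly(A) tails are poorly captured by this chemistry and the H2A genes share sequence. Gsr, glutathione reductase, was 60.5-fold lower.

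Against the undifferentiated gate the prophase-low group differed in few genes. Of 4578 genes measured, 194 were higher (4.24%) and 209 lower (4.57%), and with the median ratio set to 0 the split was 154 and 256. The differentiation list had 5 higher and 5 lower of 19 measured. Rhox13 stood at 166 and 174 CPM in the prophase-low group and at 85.0 and 50.02 CPM in the undifferentiated gate (2.48-fold, 1.94 to 3.22), Esx1 at 101.6 against 29.0 CPM, Prss50 at 117.4 against 18.8 CPM and Elavl2, an RNA-binding protein gene, at 146.2 against 89.6 CPM. Dmrtb1, which controls the exit from mitosis, was called higher at 257.6 against 163.0 CPM, but stood at 341.8 CPM in the Sertoli barcodes, which hold germ cell RNA themselves, so its level is not read as expression here. With the median ratio set to 0, 3 of the 19 were higher.

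The largest ratios among genes lower in the prophase-low group were those of Ccnd2, Sdc4, Zfp462, Egr4, Afp, Egr1, Map4k4 and Brwd3. Ccnd2 stood at 3.74 and 0 CPM in the prophase-low group and at 57.2 and 159 CPM in the undifferentiated gate, 48.7-fold lower (18.6 to 182). Sdc4, a cell surface proteoglycan, was 46.5-fold lower (7.07 against 328.6 CPM), Zfp462, a zinc finger gene, 38.1-fold, Egr4, an early growth response gene, 23.7-fold and Egr1 17.8-fold. Sohlh1 was 2.05-fold and Sox3, a transcription factor of early spermatogonia, 2.13-fold lower. Outside the rule the undifferentiated gene Trim71, a target of let-7, was 6.44-fold lower (4.52 to 9.40). Kit itself stood at 103.8 against 72.6 CPM and was not called (1.43-fold, 1.10 to 1.87), being 1.22-fold higher under mark 1 and 1.79-fold under mark 2. Dnmt3b was not called either, at 45.7 against 82.8 CPM.

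Between the prophase-low group and the undifferentiated gate a few replication genes and no division genes were called. Of 29 replication genes 4 were higher, among them Gins2, Rrm2 and Fen1, and 0 lower, against 4.24% higher and 4.57% lower over all genes. Their median log2 ratio was 0.30 against 0.10 over all genes. The members were chosen by replication and proliferation genes, so a part of this direction can follow from the rule. Of 35 division genes 0 were called in either direction. The undifferentiated gate does not ask for cycling cells. Its sum over the 6 gate genes had a median of 8.50 with 42 of 78 barcodes at 8 or more, so it held many cycling cells too. Ezh2, the Polycomb methyltransferase, was 2.45-fold higher and Chek1 2.29-fold higher. Glycolytic genes were lower: Pkm (68.5 against 151.1 CPM), Eno1, Aldoa and Pgam1, 4 of 10 measured, with 0 higher. Phgdh, the first enzyme of serine synthesis, was 2.43-fold lower and Igf1r, the receptor for insulin-like growth factor, 2.14-fold lower.

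Division genes were higher in the prophase-low group than in the Stra8 gate. Of 4665 genes measured, 213 were higher (4.57%) and 219 lower (4.69%), and with trimmed-mean (TMM) scaling the split was 270 and 167. Of 35 division genes 20 were higher and 0 lower, with a median log2 ratio of 0.82 against -0.04 over all genes. Cenpa stood at 260 and 252 CPM in the prophase-low group and at 43.4 and 82.3 CPM in the Stra8 gate, 4.09-fold higher (3.33 to 5.06). Incenp, a partner of Aurora B, was 3.59-fold, Ccna2 3.46-fold, Sgo1, which guards centromeric cohesion, 3.30-fold and Aurkb 3.15-fold higher. The gate itself asks for 8 UMIs of proliferation genes, and the Stra8 gate does not, so a part of this direction follows from the rule. Of the 177 Stra8 barcodes 84 reached 8.

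Of 29 measured replication genes 0 were called in either direction between the prophase-low group and the Stra8 gate, with a median log2 ratio of 0.17. Mcm3 stood at 158.1 against 105.8 CPM and Pcna, the sliding clamp, at 247.3 against 169.5 CPM. Ccnd1 was 2.96-fold higher (219.6 against 74.1 CPM) and Ccne2, the cyclin of S phase entry, 1.67-fold lower. Prss50 was lower, by a ratio of 3 (2.57 to 3.52), at 117.4 against 352.2 CPM. The meiotic genes Hfm1, Terb1 and Tex12 were lower, 3 of 11 measured, and 0 were higher. Kit (103.8 against 94.3 CPM) and Rhox13 (169.6 against 179.9 CPM) were not called, with intervals of 0.89 to 1.36 for the Kit ratio and 0.91 to 1.24 for the inverse Rhox13 ratio.

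The genes of largest ratio against the Stra8 gate, apart from division genes, were Ccng1, a cyclin gene induced by p53 (73.4 against 19.1 CPM), Dnlz and Gga2 on the higher side. On the lower side they included Pbx3, a homeobox gene (11.4 against 102.5 CPM, 8.98-fold lower), Rbpms2, Kmt2c, a histone methyltransferase gene, Tslrn1, H2-D1, Lmna, which encodes A-type lamins, and Eaf2. Pbx3 stood at 83.6 CPM in the prophase-high group and at 7.68 CPM in the undifferentiated gate, so its level was low in the undifferentiated and prophase-low classes and higher in the Stra8 and prophase-high ones.

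**Figure D4:**
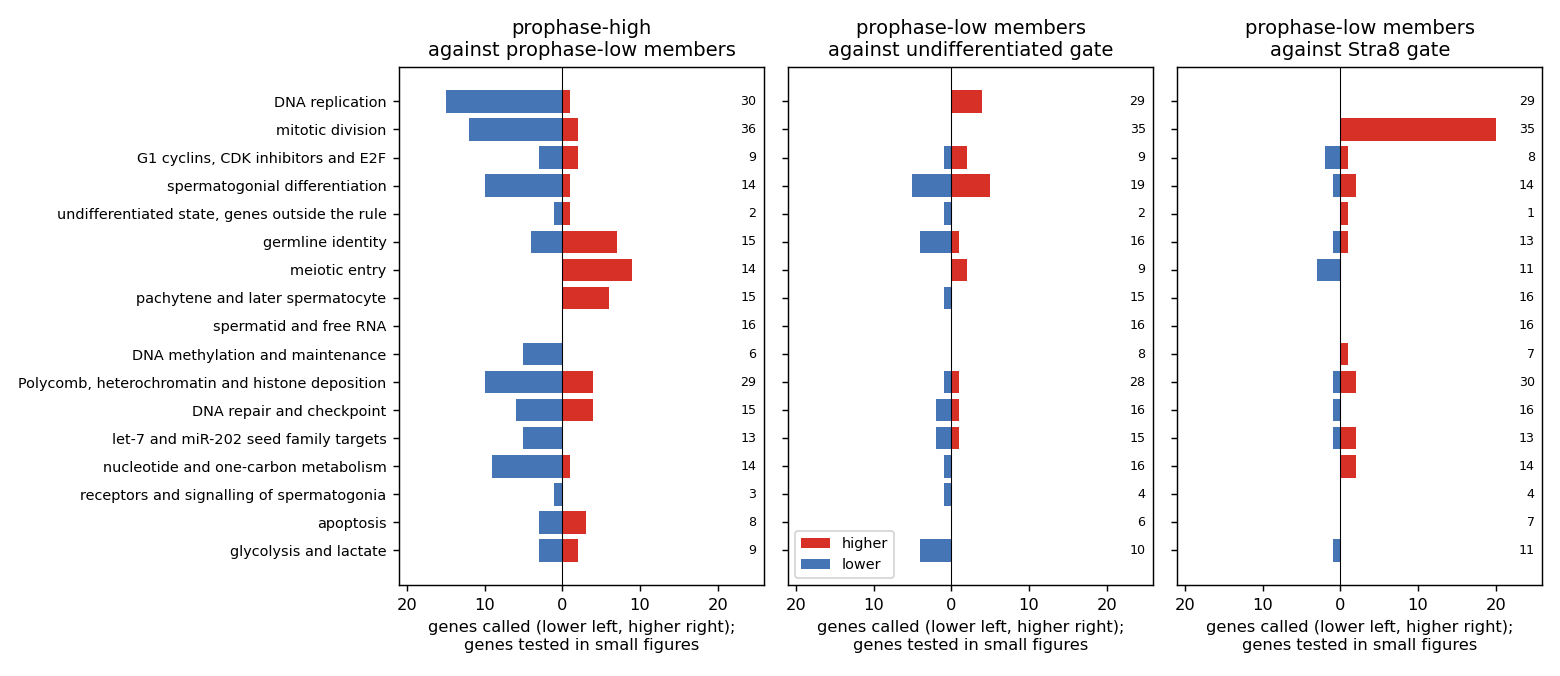
Number of listed genes called higher (red, right) and lower (blue, left) by the size rule in 3 comparisons, for 17 gene lists; the small number at the right is how many genes were measured. The DNA replication, differentiation and DNA methylation bars point left between the prophase-high and prophase-low groups, and the mitotic division bar, with 20 of 35 higher, is the longest against the Stra8 gate.

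Taken whole, the 249 barcodes mix these patterns. Against the undifferentiated gate 510 of 4707 genes were higher (10.8%) and 432 lower (9.18%). Against the Stra8 gate 208 of 4643 were higher (4.48%) and 180 lower (3.88%), a split that became 267 and 141 with TMM scaling. Gml, at 195.6 CPM in all members, led both comparisons on the higher side, and 15 of 17 meiotic entry genes were called higher than in the undifferentiated gate, whereas in the prophase-low group alone, with the prophase markers left out, 2 of 9 were (Ythdc2 and Stag3). Kit in all members stood at 61.4 CPM, between the values of the groups.

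The balance of replication and division transcripts differed between members. Of the UMIs on these lists, with gate genes left out, division genes made a median of 54.8% in the prophase-low group (33.0% to 89.1%) and 66.4% in the prophase-high group (35.6% to 86.0%). Split at 50%, 195 barcodes leaned to division and 54 to replication, with 51 barcodes between 45% and 55%. As 94 of the 99 prophase-high barcodes leaned to division, the comparison over all members follows the prophase split: 367 of 4157 genes were higher in the division-leaning barcodes (8.83%) and 236 lower (5.68%), or 570 and 151 with TMM scaling, led by Cers3 and Gml.

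Within the prophase-low group 101 barcodes leaned to division and 49 to replication. Of 4101 genes outside these lists 117 were higher in the division-leaning barcodes (2.85%) and 54 lower (1.32%). The split was 187 and 30 with TMM scaling, and it turned to 143 and 168 with the RNA profile of low-depth barcodes subtracted. Hist1h2ap was the most lowered, at 161.4 against 521.7 CPM (3.23-fold, 2.70 to 3.88). Ccne2 was 2.04-fold lower, and the linker histone gene Hist1h1c, the histone gene H2afj and Mms22l, of replication fork repair, were 2.20-fold, 2.19-fold and 2.16-fold lower. Of 14 differentiation genes 0 were called in either direction, and Kit stood at 109.5 against 91.8 CPM. On the higher side spermatid transcripts moved with the split: 8 of 16 spermatid genes were called higher, with Prm1 at 1.81-fold. Barcodes with 500 or more spermatid marker UMIs were 16 of the 101 and 2 of the 49. With them left out 0 of 16 were called, and the counts over all genes became 59 and 27. Of the 8 called genes 5 (Prm1, Prm2, Tnp1, Tnp2 and Tssk6) are among the markers that chose those barcodes. The loss of these calls thus partly follows from the choice and is no check of their source. The part of spermatid RNA in the other genes called higher, led by Tmem80, Klk1b8 and Odf4, was not tested.

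Genes listed as targets of the let-7 and miR-202 seed family were followed because miR-202 is the gene deleted in 1 of the libraries, although the marks carry no genotype. The mature sequences, from RefSeq, are shown with the seed (bases 2 to 8) in capitals. Mir202 lies on the minus strand of chromosome 7, with miR-202-3p at 139957695 to 139957716 (GRCm38.p6). The let-7a-5p sequence is shown because the target list was drawn up for this seed family. The seeds of let-7a-5p (GAGGUAG) and miR-202-3p (GAGGUAU) differ at base 8, and that of miR-202-5p (UCCUAUG) is unlike both. The listed genes are therefore not read as targets of miR-202-5p, and whether miR-202-3p acts on them was not tested.
mmu-miR-202-3p: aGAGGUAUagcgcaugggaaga
mmu-miR-202-5p: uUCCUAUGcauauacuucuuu
mmu-let-7a-5p: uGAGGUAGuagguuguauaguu
Of 13 measured genes on the list 5 were lower in the prophase-high than in the prophase-low group (Lin28b, Igf2bp1, Ccnd1, Cdc25a and Rictor) and 0 higher. Over all genes in that comparison 17.1% were lower and 17.9% higher. Lin28b, an RNA-binding protein gene that blocks let-7 processing, stood at 66.4 and 79.1 CPM in the prophase-low group and at 24.4 and 5.81 CPM in the prophase-high group. Between the marks, over all members, 0 of 12 measured genes on this list were called. Over all genes 2.03% were higher and 2.40% lower under mark 1, so 0 calls among so few genes do not set the list apart.

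Between the marks the 249 barcodes differed in few genes. Of 4491 measured, 91 were at least 1.5-fold higher under mark 1 (2.03%) and 108 lower (2.40%). Higher under mark 1 were Exoc1, of the exocyst (59.3 against 21.2 CPM, 2.79-fold), and Cnot6l, a deadenylase gene (68.8 against 33.6 CPM). Lower under mark 1 were Pou2f2 (15.4 against 61.7 CPM), Gstt2 (73.0 against 239.1 CPM), Lypd11, Id4 (32.6 against 93.2 CPM), Stambp, Lypd10 and Elfn2. Id4, known as an inhibitor of helix-loop-helix factors in stem spermatogonia, here lay in the prophase-high group, at 68.2 and 189 CPM against 12.2 and 7.78 CPM in the prophase-low group, and the prophase-high share (37.7% and 42.3%) and median depth (9064 and 14857 UMIs) differ between the marks in the same direction. Their part in these values was not tested. In the prophase-low group alone 82 genes were higher and 41 lower under mark 1, and in the prophase-high group alone 240 and 211. The number of genes measured in each group alone is not given, so no share is set beside these counts. The few genes above thus refer to all members pooled. Of 26 replication, 36 division and 13 differentiation genes 0 were called between the marks. With 2.03% and 2.40% called over all genes, this does not set these lists apart. On other lists Piwil1, Tdrd1, Tdrd5, H2afx and Cyct were lower under mark 1 and Eed was higher. All of these but Eed were also called higher in the prophase-high than in the prophase-low group.

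Other cell types were scarce. Of the Sertoli markers Wt1 and Gata4 were at 0 in the 249 barcodes (exact upper bound 1.17 CPM each), and the 12 markers in the table summed to 188.9 CPM against 5352 CPM in the Sertoli barcodes. Leydig markers summed to 6.04 CPM, macrophage markers to 5.41 CPM and stromal markers to 7.31 CPM. Endothelial markers summed to 27.4 CPM and T or NK cell markers to 22.3 CPM, with 1 barcode at 12 UMIs of the latter. B or plasma cell markers summed to 4.45 CPM and erythroid markers to 6.04 CPM. Of the members 20 held 3 or more UMIs of blood, vessel, stromal or Leydig markers, 18 of them prophase-low, and no barcode exceeded 60000 UMIs. Leaving the 20 out ended none of the calls of named genes. Doublets were not called, and 15 barcodes held more than 2 times the median UMIs.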

How the data were processed

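Single cells from adult mouse testes, 1 wild-type and 1 miR-202-/- library, were measured by droplet 3′ RNA sequencing (Next GEM 3′ v3.1). The deposited values are whole-number counts of UMIs per gene and barcode, 20476 genes by 28245 barcodes in 1 table. Per the submitters' processing notes, Cell Ranger 1.3.1, Seurat 3.2.2 and GRCm38 were used. The filter on barcodes is not stated in those notes, and doublets were not called here. Each class of barcodes was summed over its UMIs under each mark, and levels, ratios and shares were computed in Python 3.11.15 with numpy 2.4.6, pandas 2.3.3 and scipy 1.17.1, with exact Poisson or binomial 95% intervals for counting error only. A gene at 0 UMIs in 1 class was set at 3 counts for its ratio. With 1 library per genotype and marks not tied to genotype, no test was run. UMI totals per class ranged from 588487 to 3364385.

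Gate genes were left out of all counts of genes, prophase markers out of those that used the prophase limit, and both phase lists out of the split by phase. Named genes were the gate genes, the 8 of largest ratio each way among called genes (predicted genes left to counts), the 2 to 4 of largest ratio on each list, the 15 of highest CPM, and always Kit, Dmrtb1, Sohlh1, Dnmt3b, Dazl, Ddx4, Ccnd2 and Rhox13. Further names were chosen after their values were seen. The members and lists were chosen with earlier results of these data known, and the prophase limit after seeing the scores. Alternatives moved each gate limit, the size rule and the scaling (TMM from edgeR 4.0.16 in R 4.3.3, or the median ratio set to 0), subtracted the RNA profile of barcodes under 5000 UMIs outside the classes until the protamine and transition protein UMIs were used up, and left out classes of barcodes. The code of the size rule was checked on simulated counts, which says nothing of whether a difference would recur in another library. Gene positions came from GENCODE annotation of GRCm38, matched for 20088 genes, and sequences from RefSeq on GRCm38.p6. A few genes are not reported here.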

Additional observations from a re-analysis of the deposited data

How the results depend on the processing

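Counts below are genes higher and lower, and the cause of a change was not tested unless named. The gate held 345 barcodes at a sum of 6, 139 at 12, 204 with Stra8 under 1, 192 with the undifferentiated sum under 2 and 17 with Ldhc under 20. At 17 barcodes few genes reach 50 UMIs. The counts there were 33 and 300 for members against the undifferentiated gate and 12 and 300 against the Stra8 gate. For division-leaning against replication-leaning members they were 4 and 21, and for prophase-high against prophase-low 6 and 98. Prophase-low against the undifferentiated gate gave 19 and 266, and against the Stra8 gate 24 and 480. The split by phase within prophase-low gave 1 and 11. The reversed values also lie there, as log2 ratios: Cenpa 0.11 and Piwil1 -0.35 for members against the undifferentiated gate, Hspa2 -0.11, Piwil1 -0.49 and Rad51ap2 -1.57 against the Stra8 gate, and Kit 1.27 for prophase-high against prophase-low. By construction a 2-fold rule gave fewer calls, in the same order: 170 and 142, 46 and 48, 132 and 45, 447 and 517, 38 and 74, 37 and 61, 5 and 4, and 2 and 15 between the marks. A minimum of 20 UMIs and 20 CPM gave more: 872 and 901, 389 and 403, 623 and 680, 1286 and 1735. After these came 472 and 535, 484 and 450, and 253 and 228. With the profile of low-depth barcodes subtracted the counts were 891 and 442, 680 and 628, 609 and 178, 1275 and 1576. The remaining ones were 559 and 290, 449 and 501, and 143 and 168, and the last turns the split within prophase-low. TMM scaling gave 570 and 151 for the split by phase over all members and 187 and 30 within prophase-low. In these splits a gate sum of 6 gave 407 and 374 over all members and 173 and 109 within prophase-low. Prophase-low against the Stra8 gate then gave 117 and 215. A sum of 12 gave 380 and 130, and 101 and 33, in the splits. Prophase-low then gave 309 and 212 against the undifferentiated gate and 392 and 273 against the Stra8 gate. With the undifferentiated sum under 2 prophase-low gave 303 and 317 against the undifferentiated gate and 114 and 209 against the Stra8 gate. The split within prophase-low was then 156 and 31. That split gave 110 and 35 without barcodes of 3 or more somatic marker UMIs, and 59 and 27 without those of 500 or more spermatid marker UMIs. Between the marks, prophase-low barcodes alone gave 41 lower and prophase-high alone 240 and 211.

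Of the named genes, 126 values of a gene in a comparison were followed. At Ldhc under 20, 33 were weaker and 6 reversed. At 2-fold 15 were weaker, with the profile subtracted 7, and in each other alternative 3 or fewer. Values also became stronger: 16 of 124 with the profile subtracted, 9 of 123 with the undifferentiated sum under 2 and 8 at a gate sum of 12. Each other alternative had 6 or fewer stronger values. The values left the same were 101 of 124 with the profile subtracted and 78 of 120 at Ldhc under 20. The 20 of 35 division genes higher in prophase-low than in the Stra8 gate were 12 at 2-fold and 0 at Ldhc under 20, when 13 prophase-low barcodes remain. Levels under about 50 UMIs per class are too thinly counted for a call. No paired analysis was possible because there is 1 library per genotype and the marks are tied to neither.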

Other observations

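The 15 genes of highest level in the 249 barcodes held transcripts of spermatids and mitochondria before those of spermatogonia. Prm1, a protamine of the sperm nucleus, led at 9974 CPM, followed by mt-Co3 at 8961, mt-Atp6 at 8778 and Prm2 at 7029 CPM. Hsp90aa1, a germ cell chaperone, stood at 3771 CPM and Ldhc at 2896 CPM. No Kit, Ccnd1 or replication gene was among the 15.

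Of the prophase-low barcodes, 2 under mark 2 stood apart by their division transcripts, with 398 and 356 UMIs of the division list against a median of 57.5 in the group. They held 29017 and 23890 UMIs in all. They were picked out after their values were seen.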
